A study of Mus musculus with 10 samples.

Results

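The colony-stimulating factor receptors are the genes Csf3r, Csf2rb, Csf2rb2, Csf2ra, Il3ra and Il5ra, 6 of the 39179 genes counted in each library, and they were chosen by name as the receptor for granulocyte colony-stimulating factor (G-CSF), the beta chains shared by the receptors for GM-CSF, IL-3 and IL-5, and the alpha chains that pair with them. Their RNA was measured by sequencing in the tibialis anterior, a shin muscle made mostly of fast fibers, from 4 Control mice and 6 LLC mice. LLC mice had been injected under the skin of both flanks with Lewis Lung Carcinoma cells, a mouse lung cancer line whose tumors cause cachexia (the wasting of body and muscle), and Control mice with buffer. Per the sample labels all were C57BL/6J, injected at 10 weeks of age. The labels give 23 days of tumor growth for LLC mice and 0 for Control mice. The series text and the methods instead give male C57BL/10 mice, 8 weeks of age and 22 days, and this difference could not be settled. Neither source names a genetic change in either group, and the model rests on 1 transplanted tumor line at 1 time point.

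These receptors belong to the class I cytokine receptor family and lack a kinase of their own. Csf3r binds G-CSF as a pair of identical chains and drives the production, release and survival of neutrophils. The other receptors are built from an alpha chain, which binds one cytokine (GM-CSF for Csf2ra, IL-3 for Il3ra, IL-5 for Il5ra), and a beta chain, which carries the signal through the kinase Jak2 and the transcription factors Stat5a and Stat5b. Mice carry a second beta chain gene, Csf2rb2, whose product serves IL-3 only. The receptors are known mainly from myeloid cells, with Il5ra marking eosinophils, so in a whole muscle their RNA may come from resident or infiltrating leukocytes as well as from other cells. In bulk tissue, more cells of a type and more RNA per cell cannot be told apart.

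The beta chain genes are near copies that lie side by side on chromosome 15 (mm10), Csf2rb at 78325752 to 78353847 on the plus strand and Csf2rb2 at 78282507 to 78305721 on the minus strand. Their coding sequences are 95.2% identical over 2628 aligned bases of their GENCODE M21 transcripts, with 125 differing bases. The stretch of exon 4 in which they differ most is shown, because such differences let reads be told apart. It is chr15:78338893-78338952 (plus strand) in Csf2rb and chr15:78294379-78294438 (minus strand) in Csf2rb2, coding in both, and capitals mark the 13 of 60 bases that differ.
Csf2rb: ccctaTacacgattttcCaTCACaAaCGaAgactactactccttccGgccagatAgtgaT
Csf2rb2: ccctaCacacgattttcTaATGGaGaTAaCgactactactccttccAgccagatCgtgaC
Elsewhere they are alike over runs of up to 242 coding bases. Of the 4801 windows of 100 bases, the read length, in the longest coding transcript of Csf2rb, 334 (6.96%) also occurred in another gene, in every case Csf2rb2. In Csf2rb2 it was 334 of 4641 windows (7.20%). The share was 0.414% in Csf3r and 0 of 1750, 2216 and 3476 windows in Csf2ra, Il3ra and Il5ra, so most reads of each receptor could be placed from their own bases. HTSeq, which the authors used for counting, sets aside by default a read that maps to more than one place. How reads with mismatches were divided between the beta chains is not given in the sources used here.

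Total counts per library ran from 16693209 to 21303084, and at that depth 3 counts, taken as the floor of detection, amount to between 0.141 and 0.180 CPM, that is, counts relative to library size. Floors and counting intervals cover counting error only, because amplified reads without molecular identifiers are not independent molecules. The 10 genes listed as skeletal muscle markers, such as Acta1, Ckm and Myh4, were all tested and none was called in edgeR. At an unadjusted p under 0.05 there were 3, with 1 called by DESeq2 and 1 by limma voom. Tnnc2, also listed, averaged only 5.88 CPM in Control and 4.90 CPM in LLC, so it added little to the sum. The summed level was 122228 to 128657 CPM in Control and 82588 to 132837 CPM in LLC, so each library held skeletal muscle RNA. LLC 1 was the lowest, at 82588 CPM, against 118309 CPM or more in the other LLC libraries.

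Of the 6 receptor genes, 4 rose in LLC muscle, namely Csf3r by 18.0-fold, Csf2rb by 10.6-fold, Csf2rb2 by 6.78-fold and Il3ra by 2.01-fold (edgeR's quasi-likelihood test over all genes, called at a Benjamini-Hochberg adjusted p of at most 0.05 and at least 1.5-fold). Across all 12690 tested genes 5.63% were called, and 1.65% were called higher. DESeq2's Wald test called the same 4, with 8.29% of tested genes called and 3.06% called higher. Csf2ra did not pass, and Il5ra had no counts in any of the 10 libraries. The 4 genes that rose had higher values in every LLC library than in any Control library, a separation in either direction that 16.0% of all tested genes showed and in this direction 6.40%. Csf3r reached the filter on low counts in 1 of 4 Control and 6 of 6 LLC libraries, so it could be tested only because of its LLC level. Csf2rb and Csf2rb2 reached it in all 10 libraries, and Csf2ra and Il3ra in 3 of 4 Control libraries.

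**Figure D1:**
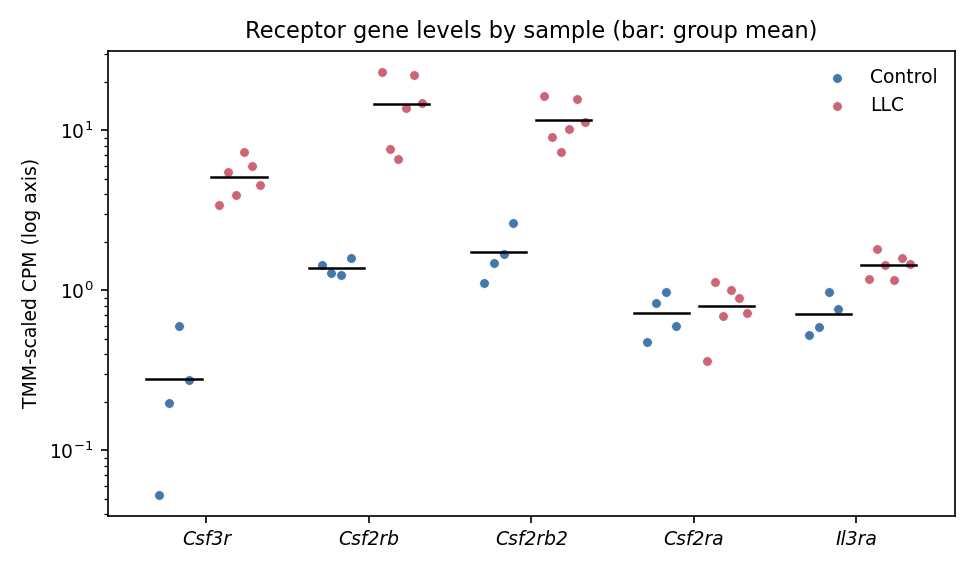
TMM-scaled CPM (log axis) of the receptor genes with counts in 4 Control (blue) and 6 LLC (red) libraries, 1 point per library, with bars at group means. Points of the groups do not overlap for Csf3r, Csf2rb, Csf2rb2 and Il3ra, whereas those of Csf2ra do.

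Csf3r (ENSMUSG00000028859, chromosome 4, 126024550 to 126044440) was nearly absent from Control muscle. It had 1, 4, 11 and 5 counts in Control 1 to 4, or 0.0530, 0.198, 0.595 and 0.274 CPM scaled by TMM factors. In LLC it ran from 3.39 CPM in LLC 1 through a median of 5.00 CPM to 7.31 CPM in LLC 4, or 66 to 145 counts. All 6 LLC libraries were several times above the highest Control library, Control 3. Its mean level was 0.280 ± 0.229 CPM (SD, n = 4) without and 5.10 ± 1.44 CPM (SD, n = 6) with a tumor, and edgeR's log2 fold change was 4.17 ± 0.40 (SE), with an adjusted p of 0.000184. Since the Control mean rests on 21 counts in all, the 95% interval of the fold was wide, from 9.79 to 33.1.

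Csf2rb (ENSMUSG00000071713), the beta chain common to the GM-CSF, IL-3 and IL-5 receptors, was present at a low and even level in Control, at 1.43, 1.28, 1.24 and 1.59 CPM. In LLC it ran from 6.66 CPM in LLC 3 through a median of 14.3 CPM to 23.2 CPM in LLC 1. LLC 1 and LLC 5 were high (23.2 and 22.1 CPM), LLC 4 and LLC 6 intermediate (13.7 and 14.8 CPM), and LLC 2 and LLC 3 low (7.68 and 6.66 CPM). The log2 fold change was 3.40 ± 0.40 (SE) with an adjusted p of 0.000553 in edgeR. Among the 4 genes that rose it varied most within LLC, with a coefficient of variation of 47.3%, against 28.2% for Csf3r, 31.3% for Csf2rb2 and 17.1% for Il3ra, and these were not compared by a test. Exons of Csf2rb and of Csf2rb2 each overlap a microRNA gene on the same strand, Mir7676-2 and Mir7676-1.

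Csf2rb2 (ENSMUSG00000071714), the beta chain for IL-3, had 1.11, 1.48, 1.68 and 2.63 CPM in Control. In LLC it ran from 7.30 CPM in LLC 3 through a median of 10.8 CPM to 16.5 CPM in LLC 1. The lowest LLC library was thus well above Control 4, the highest Control library. Its log2 fold change was 2.76 ± 0.30 (SE) with an adjusted p of 0.000372 in edgeR. When the counts of both beta chain genes were added before the fit, so that the division of reads between them no longer mattered, the log2 fold change was 3.08, with an adjusted p of 0.000355 in edgeR.

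Csf2ra (ENSMUSG00000059326, chromosome 19, 61223957 to 61228429), the GM-CSF receptor alpha chain, stood apart from its beta chain. It had 0.477, 0.839, 0.973 and 0.603 CPM in Control, and in LLC ran from 0.360 CPM in LLC 1 through a median of 0.810 CPM to 1.13 CPM in LLC 2. The groups overlapped over most of their range, and the lowest of the 10 values was that of LLC 1, the library with the most Csf2rb. The log2 fold change was 0.15 ± 0.31 (SE), with an adjusted p of 0.780 in edgeR, and its 95% interval covered folds from 0.691 to 1.77. A change within that interval, in either direction, is thus not excluded, and the gene had only 7 to 20 counts per library. Without Control 1 the log2 fold change was -0.01.

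Il3ra (ENSMUSG00000068758, chromosome 14, 14346275 to 14356011), the IL-3 receptor alpha chain, rose less than the beta chains. It had 0.530, 0.593, 0.973 and 0.767 CPM in Control, and in LLC ran from 1.16 CPM in LLC 4 through a median of 1.45 CPM to 1.81 CPM in LLC 2. The highest Control library (Control 3) and the lowest LLC library (LLC 4) were close, at 18 and 23 counts. The log2 fold change was 1.00 ± 0.22 (SE), with an adjusted p of 0.0191 in edgeR. This call was lost without Control 1, Control 2 or Control 4, with adjusted p-values of 0.0741, 0.0693 and 0.0544, while the log2 fold change stayed between 0.89 and 1.18 when any 1 library was left out. In 46 bases its exons overlap an antisense gene, Gm48860, which is not listed in the count tables. The methods give only HTSeq's default settings, so how reads of each strand were assigned there is uncertain.

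Il5ra (ENSMUSG00000005364, chromosome 6, 106710357 to 106749037), the IL-5 receptor alpha chain, had 0 counts in all 10 libraries, which allows up to 0.141 to 0.180 CPM in a library. Eosinophil markers were near absent as well. Of 8 markers, 5 (Ccr3, Epx, Ear1, Ear6 and Alox15) were at 0 throughout, none passed the filter, and the summed level was 0.0494 to 0.159 CPM in Control and 0.0579 to 0.447 CPM in LLC.

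**Figure D2:**
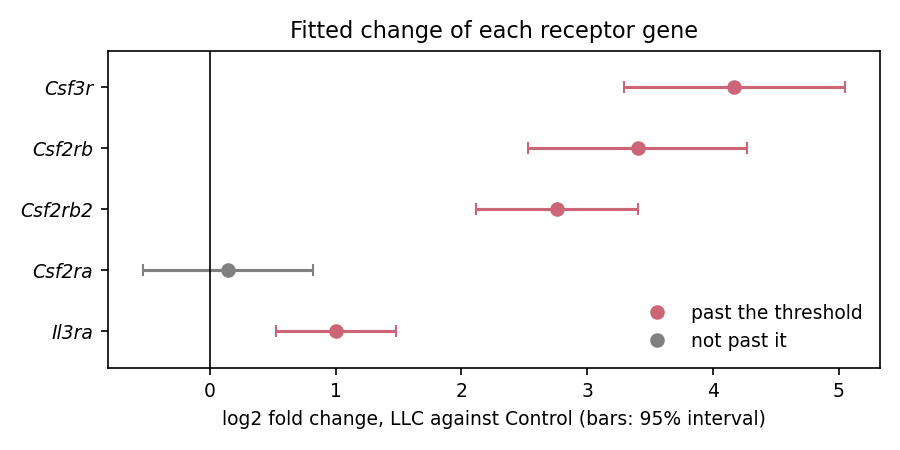
Log2 fold change of LLC against Control in edgeR's fit, with 95% intervals, for the 5 receptor genes that were tested. The intervals of Csf3r, Csf2rb and Csf2rb2 lie above 2, that of Il3ra runs from 0.52 to 1.48, and that of Csf2ra spans 0.

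To ask whether the receptor genes moved by unequal amounts, the ratio of read counts between 2 genes was taken within each library, where library scaling cancels. Csf2rb had 1.27 to 2.89 times as many counts as Csf2ra in Control and 6.66 to 60.2 times as many in LLC. The groups did not overlap, and the log2 ratio averaged 0.96 ± 0.58 (SD) over 4 Control and 4.08 ± 1.13 (SD) over 6 LLC libraries. The difference of 3.12 gave p = 0.00952 (exact permutation test, two-sided, over 210 splits, the smallest p this design allows), or 0.0286 after Benjamini-Hochberg adjustment over 3 ratios. The common beta chain therefore rose more than the GM-CSF alpha chain in 6 of 6 LLC libraries.

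The beta chains kept closer to one another. Csf2rb made up 56.3%, 46.4%, 42.6% and 37.7% of the counts of both in Control 1 to 4, and 45.8% to 58.6% in LLC. The mean log2 ratio of Csf2rb to Csf2rb2 was higher in LLC by 0.48, with overlapping groups (exact permutation test, two-sided, p = 0.0762, adjusted 0.114). It came below 0.05 without Control 1 (difference 0.68, exact p = 0.0476) and without LLC 2 (difference 0.58, exact p = 0.0317). The log2 ratio of Csf3r to Csf2rb was higher in LLC by 1.14, again with overlap (exact permutation test, two-sided, p = 0.152, adjusted 0.152), and in Control it rested on the few counts of Csf3r. The difference was 0.59 without Control 1, 1.64 without Control 3 and 0.74 with 2 counts added in place of 0.5. Neither test shows that these genes moved alike.

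**Figure D3:**
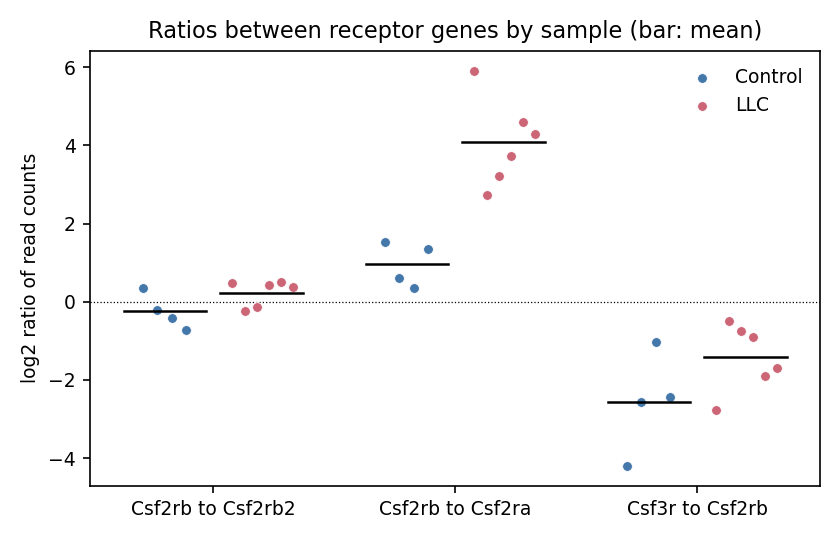
Log2 ratio of read counts between pairs of receptor genes, with 0.5 counts added to each, in 4 Control (blue) and 6 LLC (red) libraries, bars at means. The groups separate for Csf2rb to Csf2ra and overlap for the other ratios.

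Levels can be compared between genes only per length, here as RPKM, the TMM-scaled CPM per kilobase of exon. In Control, Csf2rb2 had 0.364 ± 0.136 RPKM (SD, n = 4), Csf2ra 0.252 ± 0.0783, Il3ra 0.241 ± 0.0671, Csf2rb 0.191 ± 0.0215 and Csf3r 0.0775 ± 0.0635. The alpha and beta chains overlapped in this order, and Csf3r lay below them, with a highest value of 0.165 RPKM against a lowest of 0.166 for Csf2ra and 0.171 for Csf2rb. In LLC the order was Csf2rb2 at 2.46 ± 0.772 RPKM (SD, n = 6), Csf2rb at 2.02 ± 0.954, Csf3r at 1.41 ± 0.398, Il3ra at 0.485 ± 0.0828 and Csf2ra at 0.279 ± 0.0948. Values of the first 3 overlapped, all of them exceeded the highest Il3ra value of 0.609 RPKM, and Il3ra and Csf2ra touched at 0.391 and 0.393 RPKM. The order of the beta chains depended on the length used, since with the longest coding transcript in place of all annotated exons Csf2rb was at 3.00 ± 1.42 RPKM in LLC, above Csf2rb2. With that length Csf2ra, at 0.391 RPKM, was also above Csf2rb2, at 0.364 RPKM, in Control. The alpha and beta chains, within a small range in Control, were thus far apart in LLC.

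**Figure D4:**
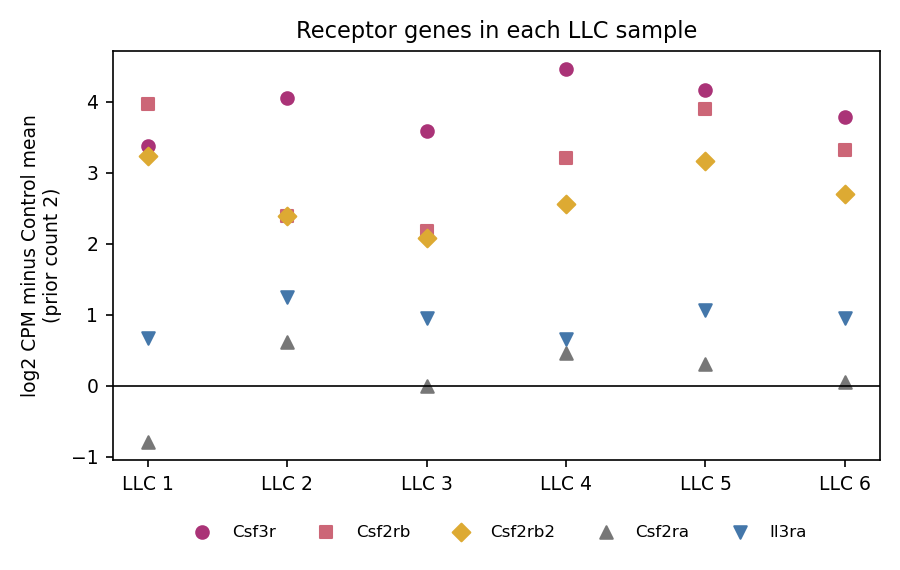
Change of each receptor gene in each LLC library, as log2 CPM (prior count 2) minus the Control mean. Csf3r is highest in LLC 4 and lowest in LLC 1, whereas Csf2rb and Csf2rb2 are highest in LLC 1 and LLC 5 and lowest in LLC 3.

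Csf3r and the beta chains did not follow the same order among LLC mice. LLC 1 had the lowest Csf3r (3.39 CPM) with the highest Csf2rb (23.2 CPM), so that Csf3r had 0.147 times the counts of Csf2rb there and 0.714 times in LLC 2. This was a pattern seen in the values and was not tested. Neutrophil markers were higher in LLC as well. The 25 genes of that list summed to 1.70 to 3.56 CPM in Control and 36.7 to 81.9 CPM in LLC, a 23.5-fold rise of the mean with no overlap. S100a8 and S100a9 averaged 14.3 and 21.3 CPM in LLC, where the sum averaged 55.6 CPM. The neutrophil sum in LLC thus mostly reflects this pair of genes. The largest fitted changes were those of Retnlg, Clec4d, S100a8, Ngp, S100a9 and Cd177. In Control these had at most 1, 0, 7, 2, 19 and 1 counts. Near-zero Control values thus largely set this order, and no folds are given. All 12 tested genes of the list were called higher, but none reached the filter in every Control library, so this count could hardly have come out otherwise, and 13 were too low to test. Among LLC libraries the neutrophil sum was highest in LLC 5 and LLC 4 (81.9 and 78.7 CPM), which also held the most Csf3r (5.95 and 7.31 CPM), and was 48.3 CPM in LLC 1. LLC 6, with a smaller neutrophil sum than LLC 1 (37.5 against 48.3 CPM), had more Csf3r (4.53 against 3.39 CPM). Csf2rb followed the sum in some libraries, being lowest in LLC 3, where the sum was lowest (36.7 CPM), and high in LLC 5. It did not in others, since it was highest in LLC 1. LLC 2 had a larger neutrophil sum than LLC 6 (50.7 against 37.5 CPM) with less Csf2rb (7.68 against 14.8 CPM). These orders among LLC libraries were not tested. Elane was the only gene of the list at 0 in every library. The part of neutrophil RNA in the rise of the receptors was not tested.

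Markers of other cells that can carry these receptors did not rise as lists. Monocyte and macrophage markers summed to 29.5 to 45.2 CPM in Control and 25.3 to 42.2 CPM in LLC. Of 11 tested 3 were called in edgeR (27.3%, beside 5.63% of all tested genes). Among these 2 fell (Mrc1, by a log2 fold change of -1.05, and Lyve1, of -2.53) and 1 was called higher, Ly6c2. Ly6c2 had 0 to 3 counts in Control and 6 to 22 in LLC, so it was tested only because of its LLC level and no fold is given. Dendritic cell markers summed to 8.37 to 11.0 CPM and 6.79 to 8.89 CPM, and mast cell and basophil markers to 2.22 to 4.55 CPM and 1.62 to 3.47 CPM, with none called in edgeR among 3 and 2 tested. At an unadjusted p under 0.05 these were 0 and 1, DESeq2 called 0 in both, and limma voom called 0 and 1. Lymphocyte markers summed to at most 1.09 CPM in any library, and none of 10 could be tested. The 8 endothelial markers summed to 320 to 396 CPM in Control and 313 to 360 CPM in LLC. All were tested and 1 was called in edgeR (12.5%, beside 5.63% of all tested genes). This was Kdr, the main VEGF receptor, lower at -1.13 on the log2 scale. The list did not move in a single direction, with 3 log2 fold changes above 0 and 5 below, and 6 at an unadjusted p under 0.05 in edgeR.

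For each receptor gene that rose, the 3 genes with the most alike pattern were sought among all tested genes, by the root mean square (RMS) difference between log2 CPM profiles over the 10 libraries, each set to a Control mean of 0. Nearest to Csf3r were Slfn4 (RMS 0.27), Ngp (0.63) and Retnlg (0.77). Csf2rb was nearest to Lcn2 (0.46), Csf2rb2 (0.49) and Clec4d (0.55). Those nearest to Csf2rb2 were Selp (0.40) and Sele (0.46), the genes of P-selectin and E-selectin, and Clec4d (0.47). Il3ra was nearest to Akt2-ps (0.15), Myog (0.25) and Acsl3 (0.25). Csf3r and Csf2rb were 0.98 apart by this measure, and Csf2ra was 2.50 from Csf2rb. In Control libraries Ngp had 0 to 2 counts, Retnlg 0 to 1 and Clec4d 0, all under the floor of 3. The 2 prior counts thus largely set their Control values, and their RMS differences depend on that setting. Csf3r itself had only 1 to 11 counts in Control, so differences from it depend on the setting as well. So do those of Sele, whose fitted log2 fold change of 5.00 exceeded its highest profile change in LLC, 3.27.

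Among the ligands, those of the receptors studied were at or near 0 in muscle. Csf2 (GM-CSF) and Il3 had no counts in any library, Csf3 (G-CSF) had 1 count in 1 LLC library (LLC 5), and Il5 had at most 1 count in any library. Each of these is under the floor of 3 counts, so no change can be given. Csf1 and Il34, which act through the unrelated kinase receptor Csf1r, were measured beside them. Csf1 averaged 6.32 ± 1.41 CPM (SD) over the Control and 5.44 ± 1.41 CPM (SD) over the LLC libraries and did not pass (log2 fold change -0.21 ± 0.22, SE, adjusted p = 0.526 in edgeR). Il34 was lower in LLC, at 2.50 ± 0.199 CPM (SD) against 3.99 ± 0.667 CPM (SD), and passed with log2 fold change -0.67 ± 0.13 (SE) and adjusted p = 0.0114 in edgeR. All 6 LLC libraries lay below every Control library. Without Control 1 its fold came below 1.5 (log2 fold change -0.55). Exons of Il34 overlap 2 antisense genes.

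Of 25 mediators, molecules that carry or limit the signal, 21 were tested, 2 rose (9.52%, beside 1.65% of all tested genes called higher) and none fell. Their median log2 fold change was -0.01, against 0.00 for all tested genes. DESeq2 called 4 (19.0%, beside 8.29%), of which 3 were higher (14.3%, beside 3.06%). Stat3, the transcription factor that Csf3r activates, rose, with averages of 39.9 ± 0.473 CPM (SD) in Control against 66.5 ± 14.1 CPM (SD) in LLC (log2 fold change 0.74 ± 0.15, SE, adjusted p = 0.0128 in edgeR). Under limma voom with sample weights its log2 fold change was 0.56, below 1.5-fold. Fgr, a Src-family kinase of myeloid cells, was called higher at 1 count in each Control library and 7 to 25 counts in LLC. Its Control values lie under the floor of 3 counts, so no fold is given, and it was tested only because of its LLC level. It no longer reached the filter, and so went untested, without LLC 2, LLC 4, LLC 5 or LLC 6, each of which left 1 mediator called. Without LLC 1 the count was 4 and without LLC 3 it was 3, as Ptpn6 and, in the former, Pik3cd joined. With all libraries Ptpn6 was higher in LLC (log2 fold change 1.45) and Pik3cd lower (-0.93), and neither passed in edgeR. Jak2, the kinase used by both receptor types, had 69.1 ± 6.85 CPM in Control and 57.7 ± 10.9 CPM in LLC and did not pass (adjusted p = 0.245 in edgeR). Stat5b reached an adjusted p of 0.0372 in edgeR at a log2 fold change of 0.41, under the 1.5-fold limit.

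Of 18 feedback inhibitors and other genes known to respond to STAT3 or STAT5, 16 were tested and 1 rose (6.25%, beside 1.65% of all tested genes). This was Il4ra, the IL-4 receptor alpha chain, whose average was 6.23 ± 0.576 CPM (SD) in Control against 19.9 ± 6.32 CPM (SD) in LLC (log2 fold change 1.67 ± 0.22, SE, adjusted p = 0.00103 in edgeR). The median of the list was 0.56, and 11 of 16 values lay above 0, against 6382 of 12690 for all tested genes. Socs3, the feedback inhibitor of Csf3r signalling, had a difference of 1.28 ± 0.39 (SE) on the log2 scale in edgeR's fit with an adjusted p of 0.0711, and Cebpd one of 2.73 ± 0.75 (SE) with an adjusted p of 0.0506, so neither passed. The DESeq2 Wald test called both, and 7 genes of the list in all, each higher (43.8%, beside 3.06% of all tested genes). Without LLC 1, LLC 3 or LLC 4 the edgeR count, in either direction, was 4, 3 and 3. It was 2 without Control 1 or LLC 2. Cish, the classic target of Stat5a and Stat5b, had 34.6 ± 19.8 CPM in Control and 26.1 ± 23.3 CPM in LLC and did not pass (adjusted p = 0.685 in edgeR).

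Of 10 myeloid transcription factors 6 were tested and none was called in edgeR, with 3 at an unadjusted p under 0.05. DESeq2 called 1, Runx1 (16.7%, beside 8.29% of all tested genes), and limma voom 2 (Runx1 and Spi1). Cebpe and Gata1 were at 0 in every library. Spi1, which encodes PU.1, the factor that drives many myeloid genes, did not pass, at 1.03 ± 0.32 (SE) on the log2 scale and an adjusted p of 0.0774 in edgeR. Its call was gained without Control 2 or LLC 3, and that of Runx1 without LLC 1, each time giving 1 call.

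Of 30 other cytokine receptors 20 were tested and 3 were called (15.0%, beside 5.63% of all tested genes), of which 2 rose, with a median log2 fold change of 0.04. DESeq2 called 7 (35.0%, beside 8.29%). Osmr, the oncostatin M receptor, rose in LLC, averaging 16.7 ± 3.01 CPM (SD) against 7.09 ± 1.87 CPM (SD), with log2 fold change 1.24 ± 0.18 (SE) and adjusted p = 0.00175 in edgeR. Il4ra is the other that rose. Without LLC 1 the count of calls was 5, as Il2rg and Il6ra joined. Csf1r, the receptor for Csf1 and Il34, had 3.31 ± 0.838 CPM in Control and 1.98 ± 0.601 CPM in LLC and did not pass in edgeR (adjusted p = 0.0868), but did in DESeq2.

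**Figure D5:**
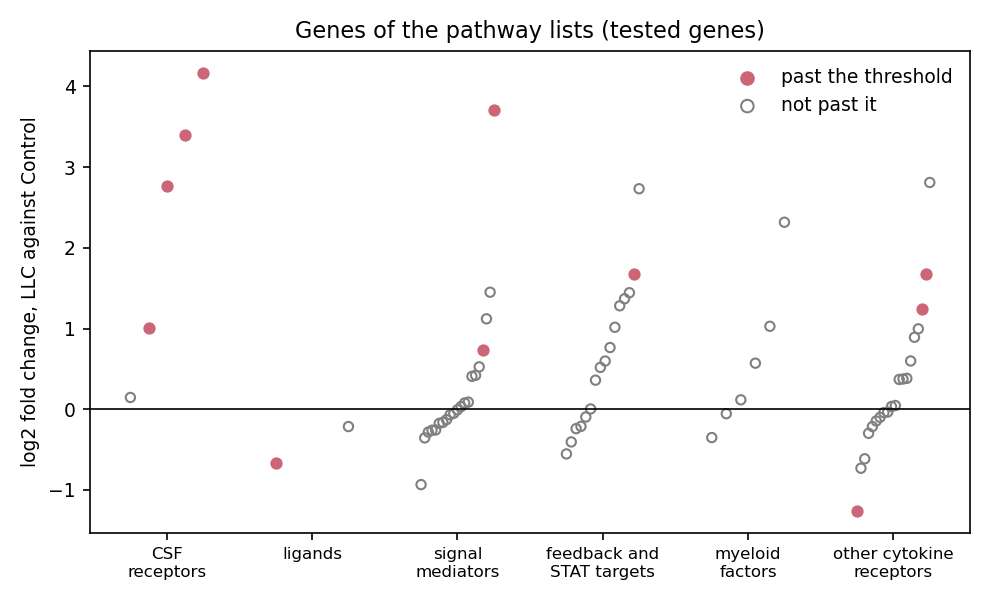
Log2 fold change of LLC against Control for each tested gene of the colony-stimulating factor (CSF) receptors and of the 5 pathway lists, with filled points past the threshold. The receptors hold 4 filled points, and the lists hold 1, 2, 1, 0 and 3.

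Promoter sequence (RefSeq, GRCm38.p6) was found for 5 of the 6 receptors, all but Csf2rb. The bases before the start of Csf3r and Csf2rb2, the receptor genes with the largest rise among those found, are shown because both rose. RefSeq places the start of Csf3r further in than GENCODE M21, and 109 of the 250 bases before it lie inside the GENCODE gene, so the 141 bases before both starts are shown. For Csf2rb2 all 250 bases lie outside the gene. Capitals mark matches, on either strand, to GAGGAA (the core bound by PU.1 and other Ets factors) or TTCNNNGAA (the STAT site), and the Csf3r stretch holds none. It lies at chr4:126024409-126024549 (plus strand) and that of Csf2rb2 at chr15:78305722-78305971 (minus strand).
Csf3r: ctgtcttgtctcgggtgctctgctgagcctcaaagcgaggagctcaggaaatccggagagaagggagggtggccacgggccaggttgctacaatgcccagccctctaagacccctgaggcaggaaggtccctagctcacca
Csf2rb2: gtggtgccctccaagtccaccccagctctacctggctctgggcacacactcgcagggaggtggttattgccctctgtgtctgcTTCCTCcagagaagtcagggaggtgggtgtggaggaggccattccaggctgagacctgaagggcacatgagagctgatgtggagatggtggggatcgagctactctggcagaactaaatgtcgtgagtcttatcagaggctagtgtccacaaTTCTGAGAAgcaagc
In the whole window of the table, which runs on to 50 bases past the start, and with positions counted from the RefSeq start, GAGGAA matched in Csf3r (position -86, inside the GENCODE gene), Csf2rb2 (-167 and 30), Csf2ra (-14 and -8) and Il5ra (42), and in 28.3% of 32851 promoters. The C/EBP core TTNNGNAA matched in Csf2rb2 (9 and 30), Csf2ra (-31) and Il3ra (-134), and in 40.7% of promoters, and its match at 30 overlaps that of GAGGAA. TTCNNNGAA matched in Csf2rb2 (-15) only among the 5, and in 8.30% of promoters. Matches thus occurred in promoters of receptor genes that rose and in those of Csf2ra, which did not pass, and Il5ra, which had no counts. The GENCODE gene also takes in 11 of the 250 bases before the start of Csf2ra and 220 of those of Il3ra. Matches describe these letters only.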

How the data were processed

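Per the labels, total RNA of tibialis anterior muscle was made into stranded libraries and sequenced in pairs of 100-base reads, 1 library per mouse. The authors mapped reads to mm10 with TopHat2 and counted them per gene with HTSeq at default settings. What they deposited is, for each Ensembl gene identifier, the raw read counts, with no normalization. The methods name RefSeq genes, so the annotation release is uncertain. Symbols were matched for 37607 of 39179 identifiers, and positions and exonic lengths were taken from GENCODE M21 (mm10). Groups and replicate numbers came from the titles.

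Genes were kept by filterByExpr (count minimum 10) and libraries scaled by TMM. The edgeR 4.0.16 quasi-likelihood fit (R 4.3.3) modelled group alone. Standard errors were derived from the F statistic, and 2 prior counts entered log2 CPM. Ratios, with 0.5 counts added, were compared by exact permutation tests in scipy 1.17.1. DESeq2 1.42.0 and limma 3.58.1 were alternatives, beside other scalings, filters, a replicate block, added beta chain counts and each library left out.

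The receptors, gene lists and alternatives were chosen with earlier results of these data known. Named were the receptors, their ligands, called genes of each list (at most the 6 with the largest change) and the 3 genes most alike in pattern to each receptor that rose. Genes named without a call (Jak2, Stat5b, Ptpn6, Pik3cd, Socs3, Cebpd, Cish, Spi1, Runx1, Csf1r, Il2rg, Il6ra) were chosen after their values were seen. Beta chain and promoter sequences are from GENCODE M21 and RefSeq, and coding sequences were aligned with MAFFT. No 2 libraries of a group agreed within sampling noise (chi-square per degree of freedom 3.90 or more), so each was counted once. Mice are separate animals, and no sequencing or preparation batches were given in the labels. The values of 1 called gene among the other cytokine receptors are not reported here.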

Additional observations from a re-analysis of the deposited data

Results flagged for a closer look

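Single libraries standing off from their group were looked for in 16 measures, or 32 groups of libraries (the receptor genes, their ratios and the marker lists), by the gap to its nearest neighbor divided by the group's range. One was found in 4 groups, where chance alone gives 1 in 20, or 1.6. None of the 4 was a receptor gene or a ratio between receptors. In LLC 1 the summed muscle markers were the lowest of 6, at 82588 CPM against 118309 CPM in the next (gap ratio 0.711). The dendritic cell markers were highest in Control 3, at 11.0 CPM against 8.74 CPM (gap ratio 0.860). The mast cell and basophil markers were lowest in Control 1, at 2.22 CPM against 4.22 CPM (gap ratio 0.858). The endothelial markers were highest among LLC libraries in LLC 4, at 360 CPM against 328 CPM (gap ratio 0.695). LLC 1 and Control 1 also bear on receptor results, since LLC 1 had the most Csf2rb and the least Csf3r and Csf2ra of LLC, and leaving out Control 1 ended the call of Il3ra.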

How the results depend on the processing

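Csf3r, Csf2rb and Csf2rb2 kept their direction and their call under all 10 fits that left out a library and all 9 other alternatives. Csf2rb and Csf2rb2 reached the filter in all 10 libraries. Csf3r passed the filter only because of its LLC level, so its kept call carries less weight. When each library was left out in turn, the log2 fold changes of Csf3r, Csf2rb and Csf2rb2 ranged from 3.83 to 4.82, from 3.24 to 3.55 and from 2.60 to 3.03. That of Csf2ra ranged from -0.0088, without Control 1, to 0.32, and never passed. That of Il3ra ranged from 0.89 to 1.18. The number of receptor genes called was 3 or 4 throughout, and no other scaling or filter changed a receptor call. In the same leave-one-out fits the counts called ranged from 0 to 1 for ligands, 1 to 4 for mediators, 1 to 4 for feedback and STAT target genes, 0 to 1 for myeloid factors and 2 to 5 for other cytokine receptors. The log2 ratio of Csf2rb to Csf2rb2 differed by 0.33 to 0.68.

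With the DESeq2 Wald test the counts called were 4 mediators, 7 feedback and target genes, 1 myeloid factor and 7 other receptors, and with limma voom and sample weights 5 feedback and target genes, 2 myeloid factors and 6 other receptors. Upper-quartile factors, and no filter, each gave 2 feedback and target genes. The cause was not tested, except that Fgr left the mediators where it was no longer tested. Across all genes, DESeq2 called 1052, of which 388 were higher, against 715 and 209 in edgeR, and leaving out 1 Control library left 415 to 438 calls.

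With the replicate number as a replicate block, Il3ra had a log2 fold change of 0.97 and did not pass (adjusted p = 0.203, edgeR), and 0 ligands, 1 mediator and 1 other receptor were called, with 112 calls among all genes. The numbers belong to different animals, and same-numbered libraries deviated together with correlations of -0.08 to 0.13, so they share a number only. LLC 5 and LLC 6 have no partner and add nothing to the block's estimate. Depth limits Csf2ra, Il3ra and the Control level of Csf3r, at 1 to 18 counts per Control library.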
